A study of Arabidopsis thaliana with 4 samples.

Results

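Retrotransposon elements were examined in mRNA-seq libraries of 10-day-old Arabidopsis thaliana seedlings of the ndx1-4 mutant and of the Col-0 wild type, with 2 libraries per genotype. The ndx1-4 line is in the Col-0 background and carries a T-DNA insertion in NODULIN HOMEOBOX (NDX), a plant homeobox protein linked to heterochromatin. It is 1 mutant allele, and the labels name no treatment for either genotype. The comparison asks which elements change their transcript level when NDX is disrupted. Of the 49 transposable elements in the authors' table, 26 were taken by family name as retrotransposons. These were 14 Copia elements (families ATCOPIA and ATRE1), 6 Gypsy elements (ATHILA, ATGP and ATLANTYS), 3 LINE elements (ATLINE) and 3 SINE elements (ATSINE). The other 23 elements carry other family names. No level was used to pick the 26, but the table holds only elements that the authors had called as changed on these same libraries.

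A retrotransposon multiplies through an RNA copy that is reverse transcribed and inserted elsewhere. Copia and Gypsy elements are bounded by long terminal repeats that carry their promoter and polyadenylation signals. LINEs lack such repeats and encode their own reverse transcriptase, and SINEs are short noncoding elements that borrow the LINE machinery. In plants most copies are kept silent by DNA methylation and histone H3 lysine 9 methylation, and in Arabidopsis they are concentrated around the centromeres. An annotated element can also be a fragment inside a gene, where reads of the gene's own transcript fall on it.

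Levels are given in FPKM, the reads of a feature relative to its length and to all reads assigned. Elements and genes were quantified against separate references, so an element level cannot be set against a gene level. Differences are ndx1-4 minus Col-0 from limma on log2(FPKM + 1), with standard errors (SE), and adjusted p-values are Benjamini-Hochberg over all 49 elements or all 1984 listed genes. The scale understates changes of low features. For an element at 0 in both libraries of 1 genotype, the size depends on the pseudocount, and the SE draws on 2 values of 0. NDX itself (AT4G03090) measured 0.98 and 1.00 FPKM in ndx1-4, against 5.08 and 4.96 FPKM in Col-0, a difference of -1.60 ± 0.10 with an adjusted p of 4.76e-06. Most of the listed features passed the test, since they were chosen on the same libraries: 47 of 49 elements (95.9%) at an adjusted p of 0.05, and 1963 of 1984 genes (98.9%) at 0.01. The study describes the 2 libraries of a genotype as independent biological replicates, and p-values rest on the spread between these 2. The seedling label could not be checked against tissue markers, because the tables hold called features only.

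Of the 26 retrotransposon elements, 24 passed the threshold, against the background of 95.9%. Among them 14 of 26 were higher in ndx1-4, where 28 of all 49 elements were higher (57.1%), and 10 of 26 were lower, where 19 of all 49 were lower (38.8%). The exceptions were the ATLANTYS2 and ATHILA3 elements. The median difference was 0.42 over the 26 elements, 0.64 over the other 23 and 0.51 over all 49. The genotypes did not overlap in 26 of the 26, as in 100% of the listed elements. Median-ratio scaling over the listed elements moved the median of all 49 by -0.57, to -0.06, and then 9 of the 26 were higher and 11 lower. Its factors come from the listed elements above 0 in all libraries, so it centres their differences near 0 by construction. A more even split after it is therefore built in. With called elements only, which of the 2 scales is right cannot be told. The share higher among the called ones was 58.3% as deposited and 45% after scaling. Without 1 library the count past the threshold was 15 without ndx1-4 replicate 1, 16 without ndx1-4 replicate 2 and 17 without either Col-0 library. In such a fit the lone library of a genotype is assumed to vary like the pair of the other genotype. In the plot of levels by library, 5 elements sit at 0 in both libraries of 1 genotype, and the largest gap between replicates is that of ATHILA3 in Col-0.

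**Figure D1:**
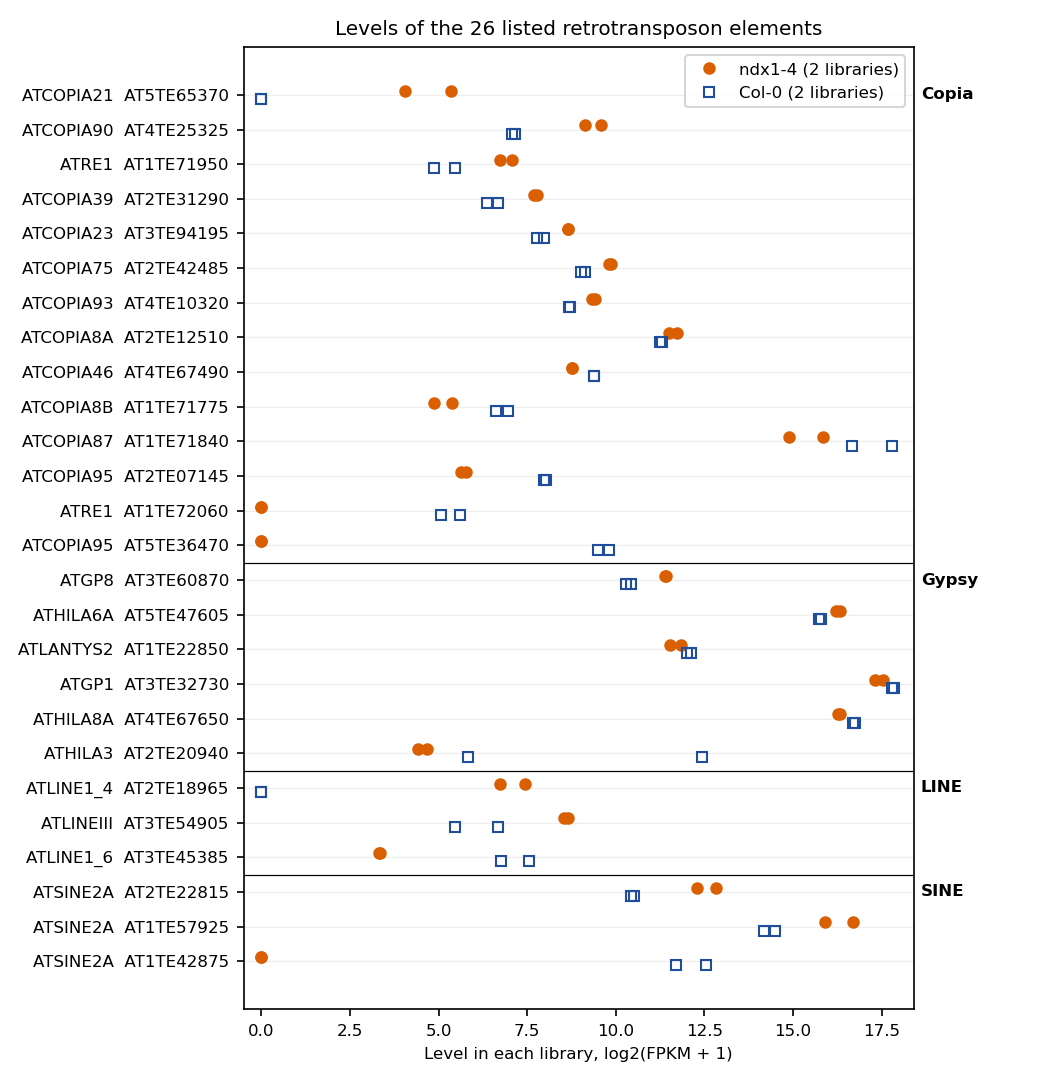
Level of each of the 26 elements in every library, as log2(FPKM + 1) on the horizontal axis, with elements grouped by superfamily on the vertical axis (filled circles ndx1-4, open squares Col-0, 2 libraries each). Of the elements, 3 sit at 0 in both ndx1-4 libraries and 2 sit at 0 in both Col-0 libraries.

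The sequences below carry the results that follow. They were read from the RefSeq TAIR10.1 assembly, in which all 1984 listed genes had the coordinates of the files, and are written in the orientation of the element. The first pair shows the only base at which the 2 ATRE1 copies differ (in capitals), within 50 bases, the length of the sequencing reads.
AT1TE71950 ATRE1 (chr1:21798427-21798476, minus strand): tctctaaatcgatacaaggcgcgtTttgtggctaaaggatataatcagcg
AT1TE72060 ATRE1 (chr1:21834685-21834734, minus strand): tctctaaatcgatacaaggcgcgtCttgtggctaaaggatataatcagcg

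The next set shows where the first terminal repeat of Copia elements ends and the internal part begins. Capitals mark TATCAGAGC, the core of the primer binding site that pairs with the initiator methionine tRNA, from which reverse transcription starts. The ATRE1 copies have 1 shared stretch there that does not hold these letters, so it is given once. In ATCOPIA75 the letters begin before the repeat ends, and the junction of ATCOPIA23, where they begin 43 bases after it, is not printed.
AT5TE65370 ATCOPIA21 (chr5:18146760-18146789, minus strand): tctcttatcacatggTATCAGAGCagtgat
AT2TE31290 ATCOPIA39 (chr2:7602229-7602258, minus strand): agaatcacaacatggTATCAGAGCtacgct
AT2TE42485 ATCOPIA75 (chr2:9932407-9932436, minus strand): atttcattgTATCAGAGCaaaagctctttt
AT4TE10320 ATCOPIA93 (chr4:2189357-2189386, plus strand): catattctaacatggTATCAGAGCatgttc
AT2TE12510 ATCOPIA8A (chr2:2863446-2863475, minus strand): cttttgccttcatggTATCAGAGCtcatgg
AT4TE67490 ATCOPIA46 (chr4:14259186-14259215, plus strand): tcaatactttcatggTATCAGAGCtcagtc
AT1TE71775 ATCOPIA8B (chr1:21748605-21748634, plus strand): gattttgtcttcatggTATCAGAGCtcatg
AT1TE71950 ATRE1 (chr1:21801567-21801596, minus strand): taaacctttatatggtatcagacgcctaga

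A further set shows 90 bases of Gypsy elements that lie in the coding sequence of a gene. In each, the window with the most copies of its commonest 3-base unit was chosen, so the counts are high by choice. The ATSINE2A element AT2TE22815, which also overlaps coding sequence, was not scanned. Capitals mark the most frequent 3-base unit of each stretch, counted without overlap: 16 copies of ACC in ATHILA8A, 13 of GGT in ATGP1 and 12 of CCA in ATHILA6A.
AT4TE67650 ATHILA8A (chr4:14305287-14305376, minus strand): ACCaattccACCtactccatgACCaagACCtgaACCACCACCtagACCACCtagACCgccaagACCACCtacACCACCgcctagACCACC
AT3TE32730 ATGP1 (chr3:7795563-7795652, plus strand): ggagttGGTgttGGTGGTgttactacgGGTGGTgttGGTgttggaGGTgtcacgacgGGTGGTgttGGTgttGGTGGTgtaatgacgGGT
AT5TE47605 ATHILA6A (chr5:13434925-13435014, plus strand): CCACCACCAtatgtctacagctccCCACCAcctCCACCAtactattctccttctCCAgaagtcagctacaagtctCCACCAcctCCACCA

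The last set gives the first 60 bases of 3 elements that were listed at 0 in 1 genotype and have no terminal repeat, all in lower case since no part of them was singled out.
AT2TE18965 ATLINE1_4 (chr2:4545528-4545587, plus strand): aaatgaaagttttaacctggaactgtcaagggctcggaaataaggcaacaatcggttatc
AT5TE36470 ATCOPIA95 (chr5:10018689-10018748, plus strand): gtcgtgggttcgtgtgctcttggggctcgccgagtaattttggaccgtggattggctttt
AT1TE42875 ATSINE2A (chr1:13127955-13128014, minus strand): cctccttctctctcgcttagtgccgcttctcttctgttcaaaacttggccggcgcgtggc

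Copia elements were the largest group. Of the 14, 8 were higher and 6 lower in ndx1-4, with a median difference of 0.51, and after median-ratio scaling 4 were higher and 6 lower. A pair of terminal repeats was found in 10 of the 14 and in none of the 12 other retrotransposon elements. The repeats were 120 to 732 bases long, their 2 copies were 98.37% to 100% identical, and 6 pairs were identical. TATCAGAGC, searched on both strands, was in 8 of these 10 elements, 3 or 4 bases after the first repeat in 6 of them. It was in 9 of all 26 elements (34.6%), in 0 of the other 23 listed elements, and in 4.5% of 23827 genome windows of 5000 bases. Of the 10 elements with terminal repeats, 7 were higher and 3 lower, and after median-ratio scaling 3 were higher, 3 lower and 4 not past the threshold.

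ATCOPIA21 on chromosome 5 (AT5TE65370, 18142156 to 18146898, 4743 bases) was listed above 0 in the mutant only. It measured 15.7 and 39.5 FPKM in ndx1-4 and stood at 0 in each Col-0 library. Its terminal repeats were identical over 120 bases, and 97% of its 50-base stretches occur once in the genome. The difference was 4.70 ± 0.53 with an adjusted p of 0.00512, a size that depends on the pseudocount. The call was lost with a pseudocount of 100 FPKM (adjusted p = 0.0726) and without 1 of the Col-0 libraries (0.0638 without replicate 1, 0.0587 without replicate 2).

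ATCOPIA90 on chromosome 4 (AT4TE25325, 6013355 to 6014162), a fragment of 808 bases annotated as the pseudogene AT4G09480, was 4.78-fold higher. It measured 766 and 560 FPKM in ndx1-4, against 143 and 135 FPKM in Col-0, a difference of 2.23 ± 0.20 with an adjusted p of 0.00311. Both mutant libraries lay well above both wild-type libraries, and the call held without any 1 library.

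Elements of nearly full length with smaller increases were ATCOPIA39, ATCOPIA23, ATCOPIA75, ATCOPIA93 and ATCOPIA8A. ATCOPIA39 on chromosome 2 (AT2TE31290, 7598597 to 7602614) measured 205 and 218 FPKM in ndx1-4, against 102 and 81.9 FPKM in Col-0, a difference of 1.20 ± 0.17. ATCOPIA75 on chromosome 2 (AT2TE42485, 9927685 to 9932560) measured 904 and 922 FPKM in ndx1-4, against 514 and 564 FPKM in Col-0, a difference of 0.76 ± 0.10. ATCOPIA93 on chromosome 4 (AT4TE10320, 2188979 to 2194314) measured 642 and 685 FPKM in ndx1-4, against 411 and 415 FPKM in Col-0, a difference of 0.68 ± 0.09. ATCOPIA93 is the family of Evade, an element known to transpose when DNA methylation is lost, which lies on another chromosome than the copy listed here. ATCOPIA8A on chromosome 2 (AT2TE12510, 2858588 to 2864201), the longest of the 26, measured 2899 and 3354 FPKM in ndx1-4, against 2448 and 2501 FPKM in Col-0. Its difference of 0.33 ± 0.10 just passed, at an adjusted p of 0.0469. The ATCOPIA8A value turned to -0.23 after median-ratio scaling, and its call was lost without ndx1-4 replicate 2 (0.0681), Col-0 replicate 1 (0.195) or Col-0 replicate 2 (0.166), without the variance trend (0.0688) and with a pseudocount of 100 (0.0583). ATCOPIA39, ATCOPIA75 and ATCOPIA93 lost the call without ndx1-4 replicate 1 (each 0.0564) and without ndx1-4 replicate 2 (0.0639, 0.0607 and 0.0663). ATCOPIA75 and ATCOPIA93 also lost it after median-ratio scaling, at 0.20 with an adjusted p of 0.119 and at 0.12 with an adjusted p of 0.283.

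ATCOPIA46 on chromosome 4 (AT4TE67490, 14258825 to 14263830) went the other way. It measured 430 and 434 FPKM in ndx1-4, against 667 and 664 FPKM in Col-0, a difference of -0.62 ± 0.08 with an adjusted p of 0.00656. Replicates of each genotype lay within a few FPKM of each other. Its terminal repeats were 373 bases long and 99.2% identical, and no listed gene lies within 10000 bases. The call was lost without ndx1-4 replicate 1 (adjusted p = 0.0576) and without ndx1-4 replicate 2 (0.0607).

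Both ATCOPIA95 elements were lower. The longer one on chromosome 2 (AT2TE07145, 1547661 to 1552033, 4373 bases) measured 48.5 and 54.0 FPKM in ndx1-4, against 262 and 253 FPKM in Col-0, a 5.02-fold higher mean in Col-0. Its difference was -2.31 ± 0.13 with an adjusted p of 0.00131. The fragment on chromosome 5 (AT5TE36470, 10018689 to 10019252, 564 bases) was listed at 0 in both ndx1-4 libraries and measured 897 and 723 FPKM in Col-0. The 2 elements align over 433 bases at 79.9% identity, and all 50-base stretches of the fragment (100%) occur once in the genome. The fragment lies outside annotated exons, and its adjusted p was 0.000136. The call of AT2TE07145 held without any 1 library.

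The 2 ATRE1 copies on chromosome 1 were called in opposite directions. AT1TE71950 (21796938 to 21801751) measured 106 and 132 FPKM in ndx1-4, against 43.4 and 28.3 FPKM in Col-0, a difference of 1.73 ± 0.29 with an adjusted p of 0.0111. AT1TE72060 (21833196 to 21838009) was listed at 0 in both ndx1-4 libraries, and measured 48.0 and 32.7 FPKM in Col-0, with a difference of -5.34 ± 0.27 and an adjusted p of 0.000944. Each copy is 4814 bases long and has identical terminal repeats of 167 bases. Along their whole length they differ by 1 base, T3300C, with positions counted from 1 at the 5′ end of the element and the base of AT1TE71950 written first, the capital in their 50-base windows. Only 50 of the 4765 possible 50-base stretches (1.05%) tell the copies apart. The sequence around them is also shared, with no difference over 5083 bases on 1 side and 11306 bases on the other.

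Summed over the 2 copies, ATRE1 measured 106 and 132 FPKM in ndx1-4, against 91.3 and 61.1 FPKM in Col-0, a ratio of 1.56. The difference of the sum was 0.66 ± 0.28 with an adjusted p of 0.1, which did not pass the threshold, and the lowest mutant sum was above the highest wild-type sum. AT1TE71950 held 100% of the sum in both ndx1-4 libraries, against 47.5% and 46.4% in the Col-0 libraries. Only reads that cover the differing base can tell the copies apart, and how many there were is unknown. The call of AT1TE71950 was lost without ndx1-4 replicate 1 (adjusted p = 0.0564) and without ndx1-4 replicate 2 (0.0741). For AT1TE72060, leaving out a Col-0 library says nothing about stability, because the spread then comes from 2 values of 0.

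**Figure D2:**
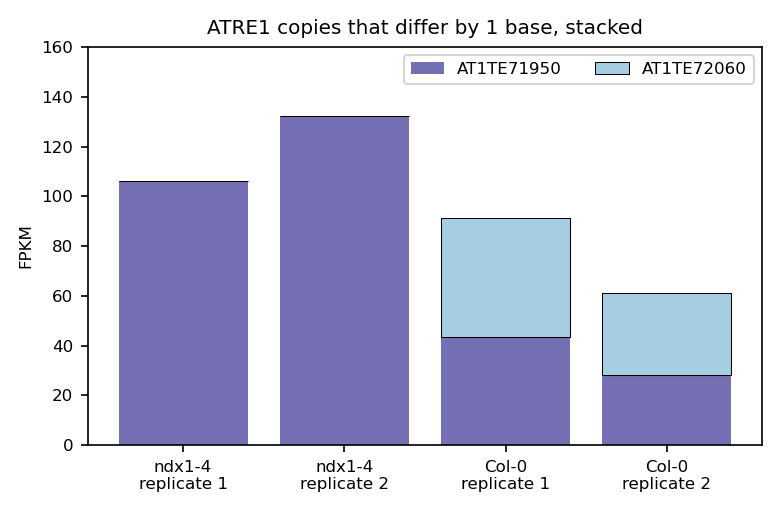
FPKM of the 2 ATRE1 copies, stacked, in each library (vertical axis FPKM, 1 bar per library, no error bars since each bar is 1 library). AT1TE72060 is at 0 in both ndx1-4 libraries and makes up 48.0 and 32.7 FPKM of the Col-0 bars.

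These copies lie in an interval of 89.8 kb that holds 4 of the 7 retrotransposon elements of chromosome 1. The others are ATCOPIA8B and ATCOPIA87, both inside AT1G58602, the NB-LRR resistance gene RPP7 that acts against downy mildew. RPP7 is known for a Copia element in an intron at which some of its transcripts end early. RPP7 measured 9.76 and 9.54 FPKM in ndx1-4, against 23.3 and 23.1 FPKM in Col-0, a difference of -1.19 ± 0.06 with an adjusted p of 2.03e-06.

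ATCOPIA8B (AT1TE71775, 21748194 to 21753388, 5195 bases) fills part of an RPP7 intron, on the same strand. It measured 40.7 and 28.4 FPKM in ndx1-4, against 97.5 and 123 FPKM in Col-0, a difference of -1.66 ± 0.27 with an adjusted p of 0.00988. Its call was lost without Col-0 replicate 1 (0.064) or replicate 2 (0.0795). ATCOPIA87 (AT1TE71840, 21765453 to 21765598, 146 bases) lies in an untranslated exon stretch near the 3′ end of RPP7. It measured 59110 and 30270 FPKM in ndx1-4, against 224300 and 103800 FPKM in Col-0, a difference of -1.85 ± 0.58 with an adjusted p of 0.0476. That call was lost without any 1 of the libraries, with adjusted p of 0.0983 to 0.217, and also with a pseudocount of 0.1 (0.0529), without the variance trend (0.0525) and with a mean of at least 100 FPKM required (0.053). Only 10.3% of its 50-base stretches occur once in the genome. Of its 97 stretches, 87 also occur in each of AT1G58807 and AT1G59124, related resistance genes whose starts are 36258 bases apart, the same offset as that between the ATRE1 copies. Neither gene is in the gene table.

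**Figure D3:**
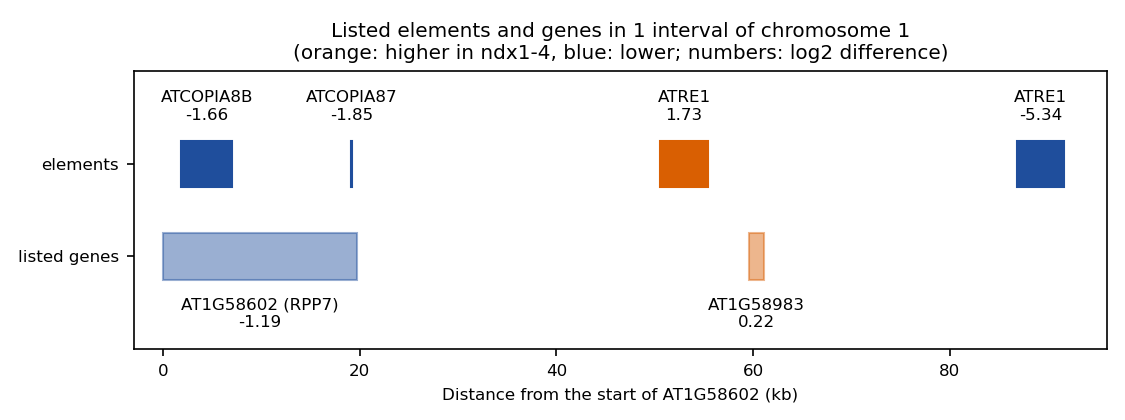
Elements (upper row) and listed genes (lower row) in 1 interval of chromosome 1, by distance from the start of AT1G58602 in kb, with limma log2 differences (ndx1-4 minus Col-0) as numbers. RPP7 and the 2 elements within it are lower in ndx1-4, and the ATRE1 copies have differences of 1.73 and -5.34.

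The 6 Gypsy elements comprised 2 higher, 2 lower and 2 not past the threshold, with a median difference of -0.39. After median-ratio scaling 1 was higher and 3 were lower. ATGP8 on chromosome 3 (AT3TE60870, 14916939 to 14918972), annotated as the pseudogene AT3G42806, measured 2686 and 2736 FPKM in ndx1-4, against 1371 and 1245 FPKM in Col-0. It was 2.07-fold higher, with a difference of 1.05 ± 0.09 and an adjusted p of 0.00306, and the call held without any 1 library. ATLANTYS2 on chromosome 1 (AT1TE22850, 7066493 to 7071562) measured 2936 and 3690 FPKM in ndx1-4, against 4139 and 4431 FPKM in Col-0, a difference of -0.38 ± 0.15 with an adjusted p of 0.0787. It was past the threshold without ndx1-4 replicate 2 (-0.54, adjusted p = 0.0399) and after median-ratio scaling (-0.95, adjusted p = 0.00629).

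ATHILA3 on chromosome 2 (AT2TE20940, 5092513 to 5097934) was set by 1 Col-0 library. Levels were 24.4 and 20.4 FPKM in ndx1-4, against 5465 and 56.0 FPKM in Col-0. The difference was -4.58 ± 2.60 with an adjusted p of 0.17. It was -1.29 without Col-0 replicate 1 (adjusted p = 0.0461) and -7.87 without Col-0 replicate 2 (adjusted p = 0.00754). Of its 50-base stretches 53.9% occur once in the genome, and the most repeated one occurs 38 times.

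The remaining Gypsy elements are fragments of 310 to 436 bases inside coding sequence, and the most repeat-rich window of each is printed above. ATHILA6A (AT5TE47605) lies in EXT13, which encodes an extensin, a structural protein of the cell wall. It measured 75160 and 81890 FPKM in ndx1-4, against 53870 and 56300 FPKM in Col-0, a difference of 0.51 ± 0.08, and EXT13 measured 54.4 and 53.7 FPKM in ndx1-4, against 39.4 and 40.1 FPKM in Col-0, a difference of 0.43 ± 0.04. ATGP1 (AT3TE32730) lies in CWLP, a cell wall-plasma membrane linker protein, and in AT3G22121, an RNA annotated on the other strand. It measured 163200 and 188800 FPKM in ndx1-4, against 237600 and 228300 FPKM in Col-0, a difference of -0.41 ± 0.10. CWLP differed by -0.51 ± 0.06 and AT3G22121 by -0.42 ± 0.04, and since the library kit does not mark strand, reads of the 2 genes cannot be told apart in their shared stretch. ATHILA8A (AT4TE67650) lies in AT4G29020, a glycine-rich protein gene, on the opposite strand. It measured 81170 and 78220 FPKM in ndx1-4, against 106500 and 109000 FPKM in Col-0, a difference of -0.44 ± 0.06, and the gene differed by -0.50 ± 0.03. ATHILA6A turned to -0.06 after median-ratio scaling (adjusted p = 0.411), and lost its call without Col-0 replicate 1 (0.064) or Col-0 replicate 2 (0.0545). ATGP1 lost its call without ndx1-4 replicate 1 (0.0556), Col-0 replicate 1 (0.171) or Col-0 replicate 2 (0.139), and that of ATHILA8A held without any 1 library.

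Of the 3 LINE elements, 2 were higher and 1 was lower, also after median-ratio scaling. ATLINE1_4 on chromosome 2 (AT2TE18965, 4545528 to 4547505), annotated as the pseudogene AT2G11410, measured 105 and 173 FPKM in ndx1-4 and stood at 0 in each Col-0 library. Its difference was 7.09 ± 0.32 with an adjusted p of 0.000755, and 93.8% of its 50-base stretches occur once in the genome. The listed gene AT2G11405 lies 2006 bases away on the same strand, and measured 14.1 and 18.5 FPKM in ndx1-4 and 0 in both Col-0 libraries, with a difference of 4.10 ± 0.14 and an adjusted p of 1.47e-07. Both features were listed above 0 in the mutant only.

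ATLINEIII on chromosome 3 (AT3TE54905, 13486882 to 13488591) was 5.36-fold higher. It measured 368 and 405 FPKM in ndx1-4, against 43.0 and 101 FPKM in Col-0, a difference of 2.53 ± 0.49 with an adjusted p of 0.015. It lies in an intron of AT3G32920, which is not in the gene table. Its call was lost without ndx1-4 replicate 1 (0.0999) and without ndx1-4 replicate 2 (0.11). ATLINE1_6 on chromosome 3 (AT3TE45385, 10917704 to 10922777), of 5074 bases, measured 8.95 and 9.16 FPKM in ndx1-4, against 108 and 185 FPKM in Col-0. The Col-0 mean was 16.2-fold higher, the difference was -3.82 ± 0.33 with an adjusted p of 0.00311, and the call held without any 1 library. All 50-base stretches of ATLINEIII and ATLINE1_6 (100%) occur once in the genome.

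The 3 SINE elements are all ATSINE2A, and no 2 of them aligned to each other over 100 bases. Of these, 2 were higher and 1 was lower, also after median-ratio scaling. The element on chromosome 1 at 13127113 to 13128014 (AT1TE42875, 902 bases) was listed at 0 in both ndx1-4 libraries and measured 3335 and 5974 FPKM in Col-0. Its difference of -12.12 ± 0.35 had an adjusted p of 0.000265, and it lies outside annotated exons. The difference was -15.45 with a pseudocount of 0.1 and -5.51 with a pseudocount of 100. The 2 higher elements lie in exons. AT2TE22815 (chromosome 2, 5649282 to 5649720) measured 7273 and 5046 FPKM in ndx1-4, against 1363 and 1455 FPKM in Col-0, a difference of 2.10 ± 0.22. Its listed host AT2G13550, which encodes an uncharacterized protein on the opposite strand, measured 20.4 and 16.1 FPKM in ndx1-4, against 3.98 and 4.21 FPKM in Col-0, a difference of 1.91 ± 0.11. AT2G13555, which is not in the gene table, is also annotated at AT2TE22815. How the reads of the element divide between the 2 genes is unknown. Coding sequence makes up 28% of the element, and 68 of its bases are coding sequence of AT2G13550. AT1TE57925 (chromosome 1, 17477615 to 17477755, 141 bases) measured 105400 and 60550 FPKM in ndx1-4, against 18690 and 22790 FPKM in Col-0, a difference of 1.95 ± 0.34. It lies in an untranslated exon of AT1G47570, which encodes a RING/U-box protein, a family that includes ubiquitin ligases. That gene measured 12.5 and 12.5 FPKM in ndx1-4, against 8.38 and 8.76 FPKM in Col-0, a difference of 0.50 ± 0.07, the farthest of any host from its element. The calls of AT2TE22815 were lost without Col-0 replicate 1 (0.06) or replicate 2 (0.0527), and those of AT1TE57925 likewise (0.119 and 0.0931).

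**Figure D4:**
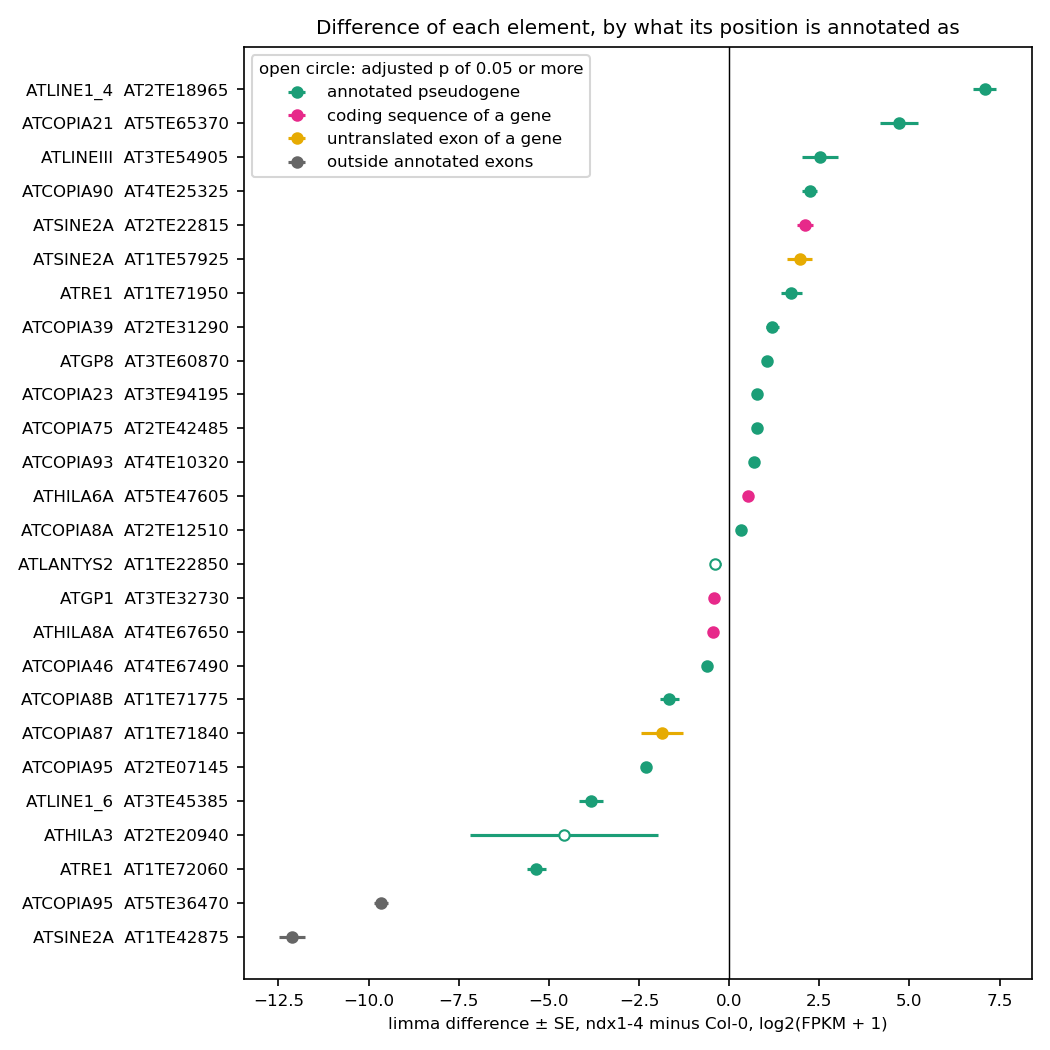
Difference of each element (ndx1-4 minus Col-0, log2(FPKM + 1), horizontal axis) with its SE as a bar, ordered by size and coloured by the annotation at its position. The elements outside annotated exons are the 2 lowest, at -9.65 and -12.12. The 4 that overlap coding sequence lie between -0.44 and 2.10, and the highest of them is 28% coding sequence.

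By position, 18 of the 26 elements overlap an annotated pseudogene, 4 overlap coding sequence, 2 lie in an untranslated exon and 2 outside annotated exons. Coding sequence makes up 28% of the ATSINE2A element AT2TE22815 and at least 88.1% of the rest of the 4. Of the 18 pseudogene elements 11 were higher and 5 lower, and after median-ratio scaling 7 were higher and 6 lower. The 2 outside annotated exons were both lower. Among the other listed elements, 3 lie outside annotated exons, 1 higher and 2 lower, with differences from -11.6 to 11.02. The 6 shortest elements, of 141 to 439 bases, all lie in exons of listed genes, and their mean levels ran from 3784 to 204500 FPKM. The 14 elements of at least 4000 bases had mean levels of 13.8 to 3799 FPKM.

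A listed gene overlapped 8 of the 26 elements, against 7 of the other 23. These 8 elements and 8 genes formed 9 pairs, since ATGP1 overlaps 2 genes and RPP7 holds 2 elements. Element and gene differed in the same direction in 9 of 9 pairs, and all 8 genes passed their threshold of 0.01. Their genotypes did not overlap, as in 99.9% of the listed genes. In the other 7 elements the direction was shared in 7 of 7 pairs. At the gene threshold, calls were lost without 1 library for AT1G47570 (adjusted p of 0.0124 to 0.0157 over the 4 libraries), for CWLP without ndx1-4 replicate 1 (0.0307) or 2 (0.0326), for AT3G62460 without ndx1-4 replicate 1 (0.0113) or 2 (0.0132), and for AT3G22121 without Col-0 replicate 1 (0.0162) or 2 (0.0134). Reads of a host transcript can fall on the element within its exon, so the 2 measures of such a pair are not independent. The closest pair was ATCOPIA23 (AT3TE94195, chromosome 3, 23100352 to 23104844), which shares 180 bases with an untranslated exon of AT3G62460, a gene annotated as a putative endonuclease or glycosyl hydrolase. ATCOPIA23 measured 399.8 and 400.3 FPKM in ndx1-4, against 219 and 251 FPKM in Col-0, a difference of 0.77 ± 0.12, and the gene measured 25.3 and 26.6 FPKM in ndx1-4, against 15.4 and 13.9 FPKM in Col-0, a difference of 0.78 ± 0.07. The call of ATCOPIA23 was lost without ndx1-4 replicate 1 (0.0949), without ndx1-4 replicate 2 (0.0907) and after median-ratio scaling (0.189).

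**Figure D5:**
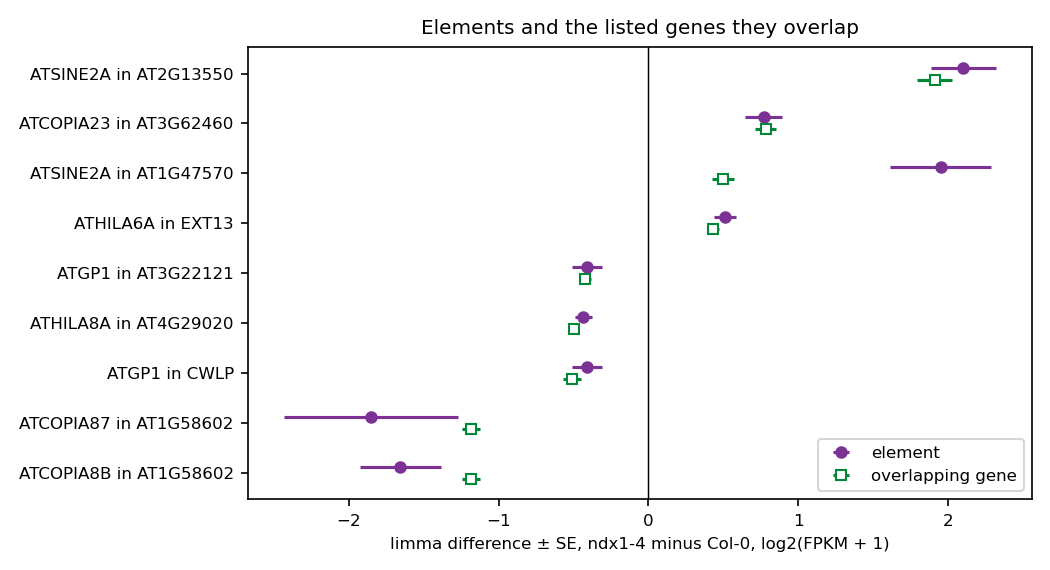
Differences (ndx1-4 minus Col-0, log2(FPKM + 1), horizontal axis) of elements (filled circles) and of the listed genes they overlap (open squares) for 9 pairs, with SE as bars. Each pair lies on 1 side of 0, and the widest gap is the 1.45 between ATSINE2A and AT1G47570.

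The 7 elements that overlap an exon of a listed gene comprised 4 higher and 3 lower, and the 19 that do not comprised 10 higher, 7 lower and 2 not past the threshold. Of the 18 elements with no overlapping listed gene, 3 had one within 10000 bases, and the other 15 were 10.7 to 533.4 kb from the nearest. Besides AT2G11405 near ATLINE1_4, these were AT1G58983, 4181 bases from the ATRE1 copy AT1TE71950, and AT1G20380, 1251 bases from ATLANTYS2. AT1G58983 measured 310 and 320 FPKM in ndx1-4, against 273 and 269 FPKM in Col-0, a difference of 0.22 ± 0.03. It lies within the 11306 bases beside AT1TE71950 that recur without a difference beside AT1TE72060. Its reads therefore cannot be assigned to 1 of the 2 positions. AT1G20380 measured 5.11 and 5.37 FPKM in ndx1-4, against 3.54 and 3.03 FPKM in Col-0, a difference of 0.54 ± 0.10, opposite in sign to the value of the element. The call of AT1G20380 was lost without any 1 library (adjusted p of 0.0112 to 0.0292), and that of AT1G58983 without ndx1-4 replicate 2 (0.0115), Col-0 replicate 1 (0.014) or Col-0 replicate 2 (0.0165).

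The elements were spread over the 5 chromosomes, with 7, 7, 5, 4 and 3 on chromosomes 1 to 5. The centre of the most gene-poor window of 1 Mb stood in for the centromere of each chromosome. The median distance to it was 2.93 Mb over the 26 elements and 3.34 Mb over the other 23, and 13 of 26 and 10 of 23 lay within 3 Mb. Among the retrotransposon elements, the 14 with a positive difference had a median of 2.07 Mb, with 9 within 3 Mb. The 12 with a negative difference had a median of 6.63 Mb, with 4 within 3 Mb. Of the 14, ATCOPIA8A (1.2 Mb) and ATHILA6A (1.7 Mb) turned negative after median-ratio scaling. The split by direction was not repeated after that scaling, and it was not made for the other 23 elements. It therefore cannot show a link between direction and distance that is particular to retrotransposon elements. Among the 12, ATCOPIA8B, ATCOPIA87 and the ATRE1 copy AT1TE72060 lie close together on chromosome 1. The ATRE1 copy AT1TE71950, one of the 14, lies in the same interval. ATCOPIA46 and ATHILA8A, also among the 12, lie close together on chromosome 4. These distances are a description without a test, since elements share intervals.

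Of 46 genes of transposon silencing (DNA methylation and demethylation, RNA-directed DNA methylation, histone methylation, chromatin remodelling and related steps), 3 are in the gene table and 43 were not analysed here. Being in the table means being called. The called share of all genes was not computed here, so 3 of 46 is not read as an excess. All 3 were higher in ndx1-4, where 43% of listed genes were higher and 55.9% lower. AGO9, an Argonaute that binds small RNAs and is known mainly from ovules, measured 2.91 and 3.01 FPKM in ndx1-4, against 0.16 and 0.17 FPKM in Col-0, a difference of 1.77 ± 0.11 with an adjusted p of 4.79e-06. ROS1, a DNA glycosylase that removes methylated cytosine, measured 16.2 and 17.1 FPKM in ndx1-4, against 8.85 and 8.76 FPKM in Col-0, a difference of 0.85 ± 0.07 with an adjusted p of 1.86e-05. NRPE1, the largest subunit of RNA polymerase V, measured 3.73 and 4.00 FPKM in ndx1-4, against 2.87 and 2.63 FPKM in Col-0, a difference of 0.38 ± 0.10 with an adjusted p of 0.00657. The call of NRPE1 was lost with a pseudocount of 0.1 (adjusted p = 0.0109) and without any 1 library (0.0211 to 0.0339).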

How the data were processed

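The authors mapped 50-nt single-end reads (TruSeq RNA libraries, MiSeq) with Salmon and its GC bias correction to Araport11 genes and, separately and with duplicates kept, to Araport11 transposable elements. Their own comparison used a count model with independent hypothesis weighting. The deposited values used are FPKM per library, and the deposited gene FPKM carry a comma as digit separator (hence another number format), which was removed. The deposited log2 fold changes and adjusted p-values of the authors' own comparison were not read. Both tables list called features only. Growth of the seedlings is not given in the sources used here.

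limma 3.58.1 (R 4.3.3) was fitted with a variance trend on log2(FPKM + 1), with 4 libraries and no covariates, and Benjamini-Hochberg adjustment over all 49 elements (threshold 0.05) and all 1984 genes (0.01). The features were called on these libraries, so the fit is a recheck and not independent evidence. A single element cannot go below p = 0.333 in a two-sided exact permutation test of 2 against 2 libraries, so none was run. The fit was also run on simulated data in which most features were unchanged. All listed features had been called as changed, so that run does not show how the fit performs on them. The titles gave each library's genotype and replicate number. Deviations by replicate number were hardly correlated between the genotypes (-0.039 over elements), which cannot exclude pairing or a shared batch for single elements. The members and lists were chosen with earlier results of these data known.

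Named were every element of the chosen families, NDX, listed genes that overlap an element by at least 1 base or lie nearest within 10000 bases, and the listed silencing genes. Printed sequences of elements other than those outside exons or at 0 in 1 genotype were chosen after their values were seen. Read depth is unknown: too few low values (5, 5, 3 and 4 in ndx1-4 replicates 1 and 2 and Col-0 replicates 1 and 2, among the 14 elements of 4000 bases or more) allowed a search for steps of whole reads, and no counting interval is given. Elements were set against TAIR10.1 annotation with 1 shared base as overlap, 50-base stretches were counted on both strands of the genome, and terminal repeats were found with BLAST 2.17.0 (at least 80 bases and 95% identity). Alternatives were pseudocounts of 0.1, 10 and 100, a mean of at least 100 FPKM (1 for genes), no variance trend, median-ratio scaling, a replicate block, each library left out and other overlap rules. The sum of the ATRE1 copies and the fit without exon elements were added after seeing the data.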

Additional observations from a re-analysis of the deposited data

How the results depend on the processing

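Of 323 values of single elements under alternatives, 271 kept their direction and side of the threshold, 45 lost the call, 5 gained it and 2 reversed. The reversed ones, both under median-ratio scaling, were ATCOPIA8A (AT2TE12510) at -0.23 and ATHILA6A (AT5TE47605) at -0.056. That scaling used factors of 1.19 and 1.23 for the ndx1-4 libraries and 0.802 and 0.826 for the Col-0 libraries, and gave 18 listed elements higher in place of 28, and 9 retrotransposon elements higher in place of 14. With a mean of at least 100 FPKM, 6 retrotransposon elements were lower in place of 10, as 3 were left out by the filter and ATCOPIA87 had an adjusted p of 0.053. With 1 library left out, 31 to 36 listed elements passed (16 to 23 higher, 13 to 17 lower) and 15 to 17 retrotransposon elements (7 to 9 higher, 7 to 9 lower), and 9 kept the call throughout. Of these, 4 are at 0 in both libraries of 1 genotype, so that leaving out a library of the other genotype leaves a spread from 2 zeros and says nothing about stability. The other 5 were 2 higher and 3 lower. For ATLINE1_6, which is among those 5, the ndx1-4 values are close together, so leaving out a Col-0 library says little as well. With the replicate block, 45 listed elements passed (26 higher, 19 lower) and 23 retrotransposon elements (13 higher, 10 lower). Deviations correlated at -0.039 over elements and 0.024 over genes, which cannot exclude pairing for single features. The SE of ATCOPIA87 went from 0.58 to 0.14 under the block, with an adjusted p of 2.63e-07. Under the block ATCOPIA46 (adjusted p = 0.0534), ATCOPIA8A (0.103) and NRPE1 (0.0117) lost the call and ATHILA3 gained it (0.00184). With the ATRE1 copies summed, 22 retrotransposon elements passed, and without elements in exons of listed genes, 17. Of 120 gene values, 97 kept their side and 23 lost the call. With read depth unknown, a listed 0 does not show that no transcript was present.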
